A study of Drosophila melanogaster with 16 samples.

Results

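In control ovaries of Drosophila melanogaster, RNA from both strands of 117 transposon families was measured, as steady-state RNA by RNA-seq and as nascent RNA by GRO-seq, in which nuclei extend the transcripts being made and these are sequenced. A family was kept if its total averaged 1 RPM (reads scaled to library size) or more over the control lines in the table of each assay, 117 of the 122 families listed in the series. The RNA-seq table lists 119 families, all of them also in the GRO-seq table, and 2 of these fell below the minimum. Of the families nearest the minimum, R1-2 and hopper2 had RNA-seq means of 0.544 and 0.334 RPM, and Helena and P-element had 1.05 and 1.15 RPM. The controls were ovaries with a knockdown of white, an eye colour gene, driven by Tj-GAL4 (tj), a driver of somatic ovarian cells, or by nos-GAL4 (nos), a germline driver. Flies were kept at 25 degrees and were 3 to 5 days old. Both RNA assays had 1 sample of each control line, 4 of the 16 samples of the series, which also holds ChIP-seq and knockdowns of piwi with the same drivers. Nuclei of about 100 ovaries went into GRO-seq and 150 ng of total RNA into RNA-seq with the NuGen Encore Complete kit, per the labels' protocols. Whole ovaries hold germline and somatic cells together, so fewer cells of a type and less RNA per cell cannot be told apart. Tissue markers were not checked, since the tables list transposons.

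Transposon RNA of the sense strand is the strand that encodes the proteins of the element and, for retrotransposons, serves as the template of a new copy. Antisense RNA comes from promoters inside an element, or from transcription that starts outside it and runs through a copy in reverse. In the fly ovary the second kind is known from piRNA clusters, regions of broken transposon copies whose transcripts are cut into the small RNAs that guide Piwi proteins. The best known cluster of the somatic cells is flamenco, in which most copies of gypsy, ZAM, Idefix and related retroviruses lie in reverse to the direction of transcription. Germline clusters are commonly transcribed from both strands.

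Strand ratios are log2 of sense over antisense, each as RPM + 1, so positive values mean more sense RNA. The added 1 RPM draws the ratios of low families towards 0, while few reads can move them either way. Both strands come from the same sample, so scaling shared by its strands cancels in the ratio, apart from the added 1 RPM. Where a column is a mean of libraries, the ratio is one of mean RPM. No group has replicate columns, although the series states 2 replicates for RNA-seq, so no test was possible and no value has a spread. The difference between the control lines stands in as a rough measure, with a median absolute value of 0.38 (log2) in GRO-seq and 0.45 in RNA-seq. But those lines also differ in driver and may differ in genetic background. Transposons took 2.09% and 2.28% of the GRO-seq RPM and 6.21% and 9.07% of the RNA-seq RPM in nos and tj. The total of a family ranged from 3.09 to 1664 RPM in GRO-seq and from 0.433 to 26835 RPM in RNA-seq. In RNA-seq 47 families in tj and 52 in nos were under 10 RPM, against 6 and 7 in GRO-seq, so RNA-seq ratios are the less certain for the low families.

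Nascent RNA of most families came from both strands, and more families leaned to antisense than to sense. In the tj control 45 of 117 families (38.5%) had at least 2-fold more antisense than sense and 15 (12.8%) at least 2-fold more sense. In the nos control 28 (23.9%) had that excess of antisense and 21 (17.9%) that of sense. The remaining 57 and 68 families had strands within 2-fold of each other. The median ratio was -0.65 in tj and -0.37 in nos. Summed over all families the strands were nearly level in tj, at 11438 RPM sense and 11361 RPM antisense, and in nos they were 11496 and 9436 RPM. A few families held much of the sense RPM: Dm88, R1A1-element and invader1 made up 39.6% of nascent sense RPM in tj and 37.1% in nos. Antisense reads were spread more widely, with 28.9% in the top 5 families in tj, led by roo, and 29.6% in nos.

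**Figure D1:**
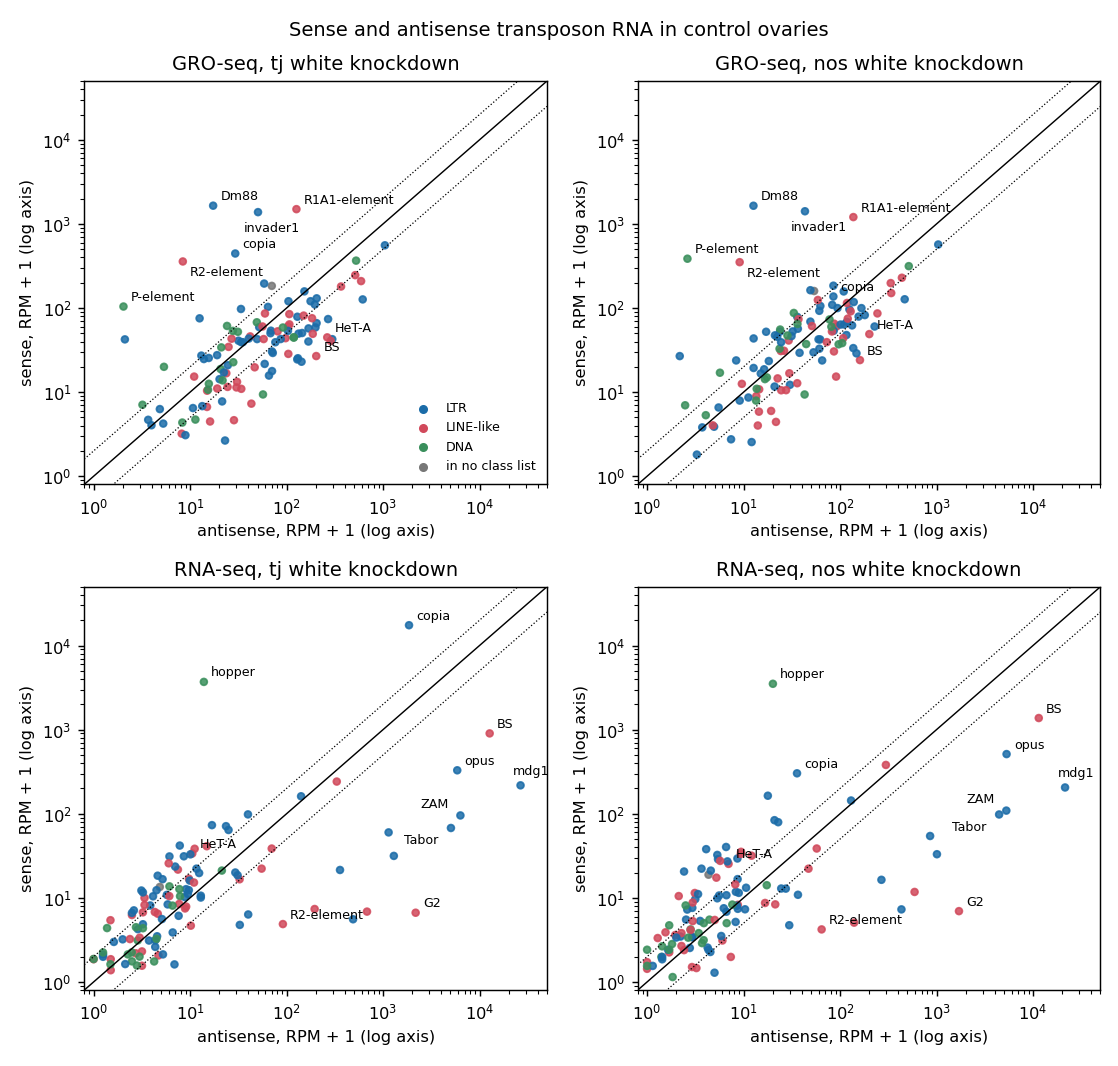
Sense against antisense RPM + 1 (both log axes) for 117 families in each control library, coloured by class, with a solid line at equal strands and dotted lines at 2-fold. In GRO-seq the cloud lies around and below the line with a few families far above it, and in RNA-seq a separate set (mdg1, BS, ZAM, G2, Tabor, opus) lies far to the right of it.

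The same 5 families, Dm88, P-element, R2-element, invader1 and frogger, led the nascent sense excess in both controls. Dm88, a copia-like LTR retrotransposon, had 1647 RPM sense and 16.3 RPM antisense in tj and 1644 RPM sense and 11.7 RPM antisense in nos, ratios of 6.57 and 7.02. Frogger, of the same group, had 41.4 RPM sense and 1.11 RPM antisense in tj and 25.8 RPM sense and 1.18 RPM antisense in nos. Invader1, another LTR element, had 1380.4 RPM sense and 49.6 RPM antisense in tj and 1414 RPM sense and 42.3 RPM antisense in nos. The sense level of each was above its antisense level in all 4 control libraries, although frogger had under 3 RPM on each strand in RNA-seq. R2-element, a LINE-like element that inserts into the ribosomal RNA genes, had 357 RPM sense and 7.41 RPM antisense in tj and 350.1 RPM sense and 8.11 RPM antisense in nos. R1A1-element, which uses the same genes as its target, had 1498 RPM sense and 126 RPM antisense in tj and 1205 RPM sense and 136 RPM antisense in nos. Both rDNA elements thus had a nascent sense excess of more than 8-fold in either line. P-element, the DNA transposon of P-M hybrid dysgenesis, had 103 RPM sense and 1.04 RPM antisense in tj and 385 RPM sense and 1.62 RPM antisense in nos. Its sense RNA differed between the control lines while its antisense RNA was among the 3 lowest of the members in both.

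At the other end of the nascent range the excess of antisense was smaller in size but shared by more families. Gypsy5, an errantivirus (an LTR element with an envelope gene), had the lowest ratio in tj, with 1.66 RPM sense and 22.0 RPM antisense, and had 1.55 RPM sense and 11.1 RPM antisense in nos. BS, a LINE-like element of the jockey clade, had 25.9 RPM sense and 202 RPM antisense in tj and 23.1 RPM sense and 159.8 RPM antisense in nos, the lowest ratio there at -2.74. Both lay beyond 4-fold in either line, and the sense strand of gypsy5 was under 2 RPM. TART-A, a telomeric retrotransposon, had 39.7 RPM sense and 286 RPM antisense in tj and 14.3 RPM sense and 90.0 RPM antisense in nos. The retrovirus-like element 297 had 41.6 RPM sense and 297 RPM antisense in tj and 59.3 RPM sense and 227 RPM antisense in nos, again with more antisense in both. Idefix, a family with copies in flamenco, had 22.0 RPM sense and 142 RPM antisense in tj and 32.4 RPM sense and 136 RPM antisense in nos. Tabor, an LTR element, had 24.3 RPM sense and 130.1 RPM antisense in tj and 27.9 RPM sense and 147 RPM antisense in nos. For all of these the antisense strand was the higher in both lines, with ratios between -3.11 and -1.92. The remaining families among the 6 lowest of a library were Fw3, a LINE-like element, at -2.62 in tj and -2.29 in nos, and mariner2, a DNA transposon, at -2.60 and -2.19. No family reached a 16-fold nascent antisense excess in either line, whereas 5 in tj and 4 in nos reached that excess of sense.

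Steady-state RNA leaned the other way for the typical family but held a small set with extreme antisense levels. At least 2-fold more sense than antisense was found for 33 of 117 families (28.2%) in tj and 34 (29.1%) in nos, and at least 2-fold more antisense for 22 (18.8%) and 21 (17.9%). With a pseudocount of 5 RPM the sense count in tj was 20. The medians were 0.35 and 0.41. In total, antisense RNA made up 73.0% of transposon RPM in tj and 87.2% in nos, in spite of the medians. Most of it came from 5 families: mdg1, BS, ZAM, opus and Tabor held 85.6% of all antisense RPM in tj and 88.6% in nos, mdg1 alone 40.2% and 39.6%. Without them the antisense share was 29.5% in tj and 52.2% in nos, with copia still counted. Copia had 17433 RPM sense in tj against 301 RPM in nos, so the lower share in tj depends on copia. Sense RPM was concentrated too, with copia at 71.2% of it in tj and hopper at 44.1% in nos. RPM is not corrected for length, so these are shares of reads and not of molecules.

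The set with steady-state antisense excess in both control lines had 19 families: mdg1, Tabor, opus, ZAM, gypsy6, gypsy7, 17.6, HMS-Beagle, HMS-Beagle2, Stalker2 and Osvaldo as LTR elements, and BS, G2, G3, G-element, Doc2-element, Rt1a, TART-C and R2-element among LINE-like elements. It held no DNA transposon, a class with 20 of the 117 families. Mdg1, an LTR retrotransposon, had 217 RPM sense and 26618 RPM antisense in tj and 204 RPM sense and 21485 RPM antisense in nos, so that 99.2% and 99.1% of its reads were antisense. G2, of the jockey clade, had the lowest ratios of all, at -8.35 in tj and -7.94 in nos, from 5.65 RPM sense and 2176 RPM antisense in tj and 5.95 RPM sense and 1707 RPM antisense in nos. BS had 901 RPM sense and 12739 RPM antisense in tj and 1373 RPM sense and 11471 RPM antisense in nos. In each of these the 2 control lines were close, and antisense exceeded sense by more than 8-fold. ZAM, an errantivirus held in check by flamenco, had 94.5 RPM sense and 6337 RPM antisense in tj and 108 RPM sense and 5287 RPM antisense in nos. Opus, also an errantivirus, had 328 RPM sense and 5875 RPM antisense in tj and 511 RPM sense and 5320.2 RPM antisense in nos. Tabor had 66.7 RPM sense and 5054 RPM antisense in tj and 97.0 RPM sense and 4453 RPM antisense in nos. Other families had the same one-sided RNA at a lower level. Gypsy6 had 4.56 RPM sense and 488 RPM antisense in tj and 6.29 RPM sense and 432 RPM antisense in nos, and Rt1a, a LINE-like element of the R1 kind, had 5.86 RPM sense and 681 RPM antisense in tj and 10.8 RPM sense and 591 RPM antisense in nos. Over the 19 families the antisense level ranged from 2.25 to 26618 RPM, with medians of 488 RPM in tj and 432 RPM in nos, and the lowest belonged to G3 and Osvaldo, whose excess rests on under 6 RPM.

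The families with steady-state sense excess in both lines numbered 26. Hopper, a DNA transposon, stood apart, with 3694 RPM sense and 12.9 RPM antisense in tj and 3507 RPM sense and 19.1 RPM antisense in nos, ratios of 8.05 and 7.44. No other family passed a 16-fold sense excess in RNA-seq in either line. Copia, the LTR element after which its group is named, had 17433 RPM sense and 1858 RPM antisense in tj and 301 RPM sense and 34.8 RPM antisense in nos. Its level differed widely between the lines on both strands, yet its ratios were close, at 3.23 and 3.08. Dm88 had 30.1 RPM sense and 5.11 RPM antisense in tj and 36.9 RPM sense and 3.10 RPM antisense in nos. Blood, an LTR element of the mdg1 group, had 72.2 RPM sense and 15.9 RPM antisense in tj and 163 RPM sense and 16.8 RPM antisense in nos. For both the sense strand was more than 4-fold above the antisense strand in either line. TAHRE, a telomeric retrotransposon, had 24.7 RPM sense and 5.00 RPM antisense in tj and 26.5 RPM sense and 4.72 RPM antisense in nos. The others among the 6 highest of a library were accord, at ratios of 2.42 in tj and 0.89 in nos, 3S18 at 1.34 and 3.09, and 1731 at 0.92 and 2.61, all LTR elements. Their antisense levels were under 10 RPM, so these ratios rest on few reads.

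**Figure D2:**
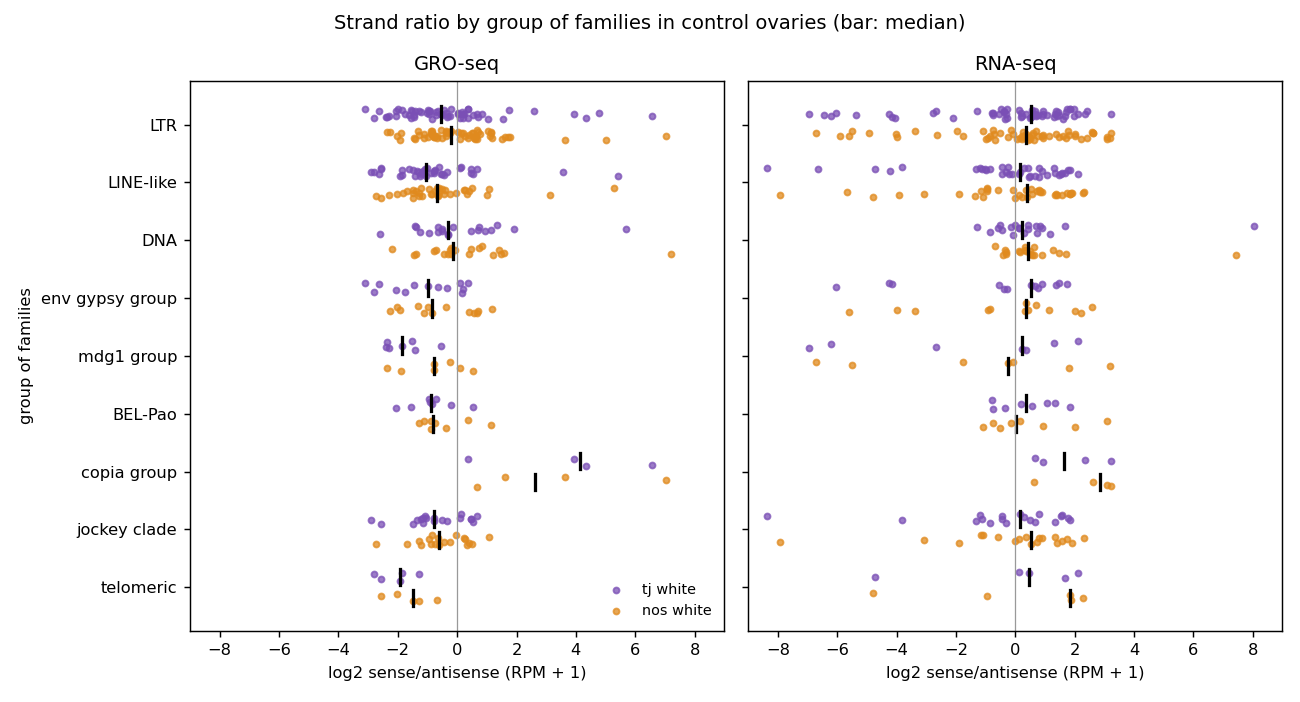
Strand ratio (log2 of sense over antisense, RPM + 1) of each family by group and control line, with a bar at the group's median. LINE-like and telomeric families lie mainly left of 0 in GRO-seq, the copia group lies right of 0 in both assays, and the far left of the RNA-seq panel holds LTR and LINE-like families only.

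Among the classes, LINE-like elements had the lowest nascent medians, and a larger share of them than of all families had an antisense excess (38.5% and 23.9% of all families in tj and nos). Of their 37 families, 20 in tj and 14 in nos had at least 2-fold more antisense, with medians of -1.07 and -0.68, and 2 and 3 had that excess of sense. Among 59 LTR families the numbers were 21 and 11 with antisense excess and 8 and 12 with sense excess, with medians of -0.56 in tj and -0.20 in nos. Of 20 DNA families, 4 and 3 had antisense excess and 4 and 5 sense excess, with medians of -0.31 and -0.15, which were 0.46 and 0.48 among families of at least 10 RPM. In RNA-seq the class medians were all above 0, between 0.16 for LINE-like families in tj and 0.51 for LTR families in tj, but among families of at least 10 RPM the LINE-like median was -0.23 in tj and -0.32 in nos. INE-1 was in no class list. Steady-state antisense excess was found for 12 LTR, 9 LINE-like and 1 DNA families in tj and for 12, 9 and 0 in nos. In either line this was 20.3% of LTR and 24.3% of LINE-like families, near the 18.8% in tj and 17.9% in nos of all families. For DNA families it was 5.0% in tj and 0.0% in nos, below those shares.

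Groups within the LTR class had medians on both sides of 0. The 4 families of the copia group (copia, 1731, Dm88 and frogger) had more sense than antisense RNA in all 4 libraries, with nascent medians of 4.12 in tj and 2.61 in nos and steady-state medians of 1.63 and 2.84. The mdg1 group takes in blood, Stalker, Stalker2, Stalker4, Tabor and 412's family. Of its 7 families, 6 (85.7%) had nascent antisense excess in tj and 2 (28.6%) in nos, beside 38.5% and 23.9% of all families. The medians were -1.87 and -0.78. The exception in tj was blood, at -0.56. Of 13 gypsy-group families with an envelope gene, among them gypsy, ZAM, Idefix, gtwin, Quasimodo and Tirant, 6 in tj and 5 in nos had nascent antisense excess. These were 46.2% and 38.5% of the group, beside 38.5% and 23.9% of all families, and the medians were -0.97 and -0.86. In steady-state RNA that group split: ZAM, 17.6 and opus were far on the antisense side and rover, springer and gypsy on the sense side, at 1.75, 1.46 and 1.36 in tj. The 8 BEL-Pao families (3S18, GATE, Max-element, diver, diver2, roo, rooA and aurora-element) had nascent medians of -0.87 and -0.80, and roo, the family with the highest nascent antisense RPM, had 556 RPM sense and 1044 RPM antisense in tj and 568 RPM sense and 1041 RPM antisense in nos. Among 19 LINE-like families of the jockey clade 9 in tj (47.4%) and 4 in nos (21.1%) had nascent antisense excess, near the 38.5% and 23.9% of all families, with Doc at 208 RPM sense and 591 RPM antisense in tj. Of the 18 families listed as known from the germline, 8 had nascent antisense excess in tj (44.4%) and 5 in nos (27.8%), also near those shares. Steady-state sense excess was found for 8 of them in tj (44.4%) and 9 in nos (50.0%), beside 28.2% and 29.1% of all families.

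The ratios of a family were close between the control lines. The difference between tj and nos was under 2-fold for 100 of 117 families in GRO-seq and 102 in RNA-seq. Across the 117 families, which share genome copies and mapping and are not replicates, Pearson r between the lines was 0.92 in GRO-seq and 0.96 in RNA-seq, with Spearman rho of 0.85 and 0.87. Where they differed, the tj control was mostly the one with less sense relative to antisense. In GRO-seq 15 families (12.8%) had a ratio at least 2-fold lower in tj and 2 (1.71%) at least 2-fold higher, and the median difference was -0.30. After centring on that median 8 were lower and 5 higher. In RNA-seq 11 (9.4%) were lower and 4 (3.42%) higher in tj, with a median difference of -0.17, and 7 and 4 after centring. These counts depend on the pseudocount: 24 were lower with 0.1 RPM, and 4 lower and 1 higher with 5 RPM. In GRO-seq 1 was higher with 5 RPM.

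**Figure D3:**
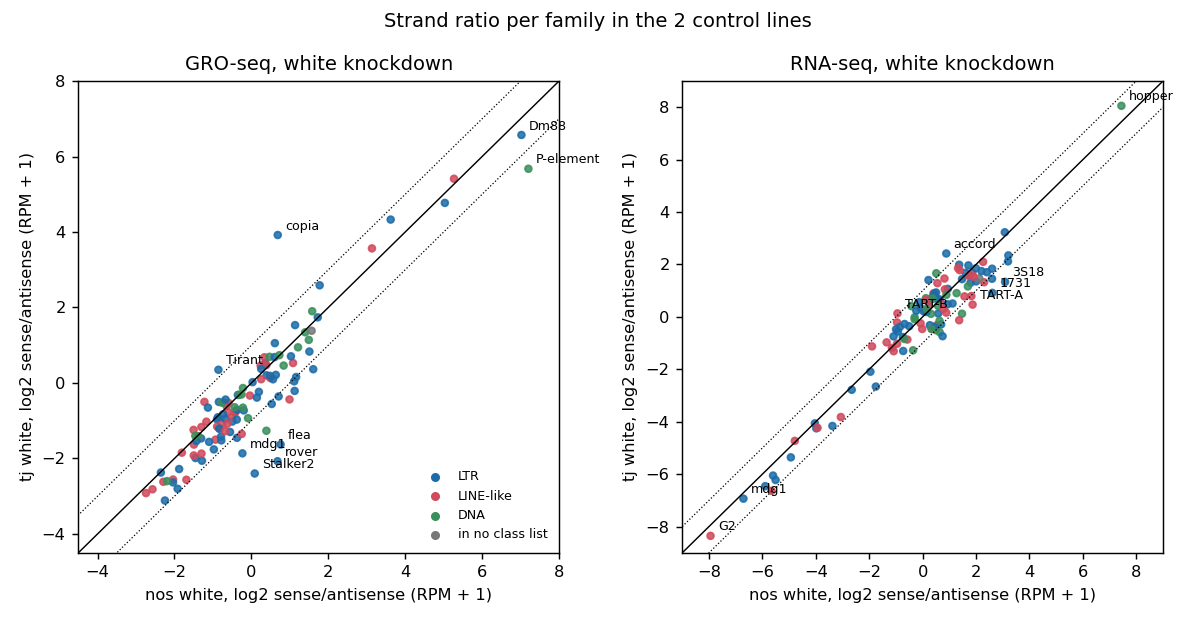
Strand ratio (log2, RPM + 1) of each family in the tj control against the nos control, in GRO-seq and RNA-seq, with a solid line at equal ratios and dotted lines at a 2-fold difference. Most of the 117 families lie between the dotted lines, and rover, Stalker2, flea, mdg1 and copia lie outside them in GRO-seq.

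The 4 largest nascent differences, those of copia, rover, Stalker2 and flea, lay in LTR elements. Rover, an errantivirus, had 39.0 RPM sense and 167 RPM antisense in tj and 38.2 RPM sense and 23.5 RPM antisense in nos, with like sense levels and more antisense in tj. Flea, another LTR element, had 65.1 RPM sense and 204 RPM antisense in tj and 105 RPM sense and 61.5 RPM antisense in nos, and mdg1 had 73.0 RPM sense and 268 RPM antisense in tj and 117 RPM sense and 138 RPM antisense in nos. Both families had more antisense in tj than in nos and less sense. Stalker2, which differed mainly in sense, had 23.5 RPM sense and 128 RPM antisense in tj and 98.9 RPM sense and 93.1 RPM antisense in nos. The largest difference in the other direction was that of copia, with 444 RPM sense and 28.4 RPM antisense in tj and 136 RPM sense and 84.3 RPM antisense in nos, a gap of 3.24 in the ratio. Tirant and transib1 also passed 2-fold, at 1.21 and -1.66, but their strands were all under 11 RPM.

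In RNA-seq the largest differences were smaller. 3S18 had 9.44 RPM sense and 3.13 RPM antisense in tj and 19.6 RPM sense and 1.42 RPM antisense in nos, and 1731 had 9.84 RPM sense and 4.74 RPM antisense in tj and 39.3 RPM sense and 5.59 RPM antisense in nos. In both the sense level was the higher in nos. Accord went the other way, with 40.8 RPM sense and 6.82 RPM antisense in tj and 8.88 RPM sense and 4.34 RPM antisense in nos. Among telomeric families the difference of tj from nos was -1.40 for TART-A and 1.08 for TART-B, and reads of these related families may have been shared between them. Fw2, micropia, invader3 and Tc3, also among the 5 largest in a direction, had under 6 RPM on each strand in both lines.

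Nascent and steady-state ratios of the same family were only loosely related. Across 117 families Pearson r between the assays was 0.22 in tj and 0.24 in nos, with Spearman rho of 0.28 and 0.34. The steady-state ratio was at least 2-fold higher than the nascent ratio for 48 families (41.0%) in tj and 42 (35.9%) in nos, and at least 2-fold lower for 22 (18.8%) and 26 (22.2%). The median difference was 0.53 in tj and 0.43 in nos. Centred on these medians, 34 were higher and 31 lower in tj, and 29 and 29 in nos, so the split between directions depends on the shift of the median. At the ends, 5 families, accord2, Burdock, Dm88, INE-1 and invader1, had at least 2-fold more sense in all 4 control libraries, and 4, BS, G3, gypsy6 and Tabor, at least 2-fold more antisense.

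**Figure D4:**
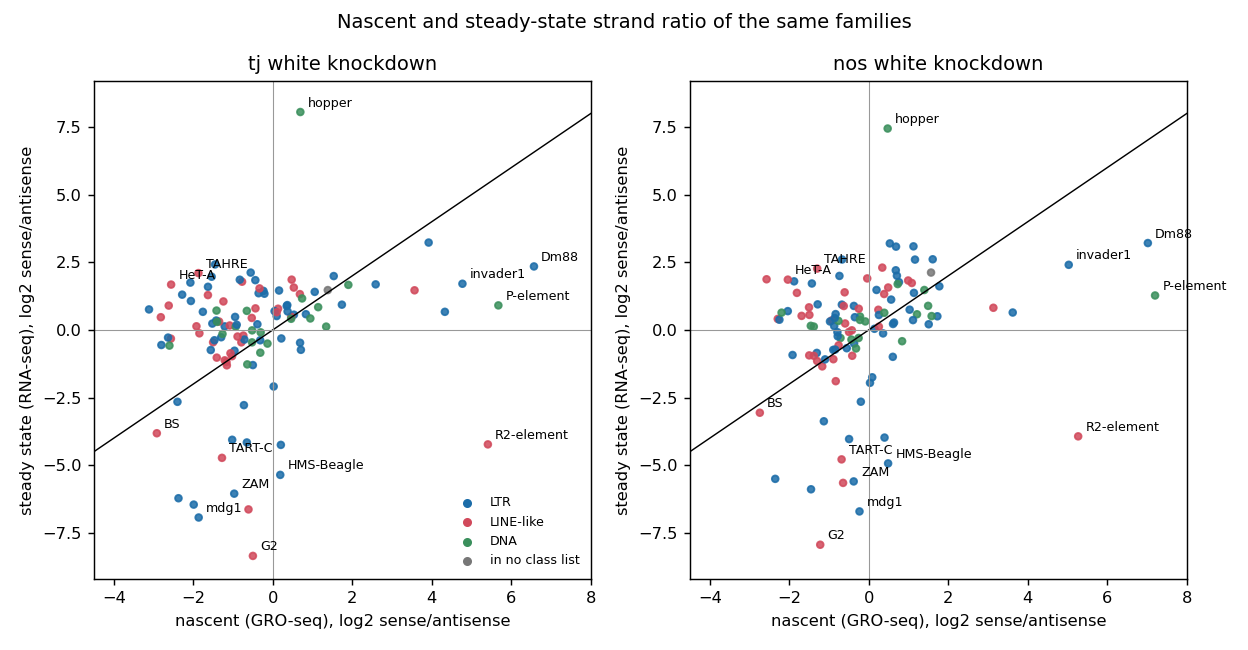
Steady-state against nascent strand ratio (log2, RPM + 1) of 117 families in each control line, with a solid line at equal ratios and thin lines at 0. R2-element lies alone at the lower right, hopper at the top, HeT-A and TAHRE in the upper left, and G2, mdg1, ZAM and HMS-Beagle far below the line.

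A reversal between the assays, beyond 2-fold on each side and in both control lines, was found for 5 families. HeT-A, TAHRE, Tom1 and 412's family had at least 2-fold more nascent antisense and at least 2-fold more steady-state sense in tj and in nos. HeT-A, the most abundant retrotransposon of fly telomeres, had 43.8 RPM sense and 263 RPM antisense nascent in tj and 48.0 RPM sense and 200.1 RPM antisense in nos, but 32.7 RPM sense and 9.54 RPM antisense at steady state in tj and 24.3 RPM sense and 5.99 RPM antisense in nos. TAHRE had 27.5 RPM sense and 103 RPM antisense nascent in tj and 42.8 RPM sense and 107 RPM antisense in nos, with its steady-state values given above. The other telomeric families were not uniform: TART-A had steady-state ratios of 0.47 in tj and 1.87 in nos, TART-B 0.13 and -0.94, and TART-C -4.73 and -4.79. All 5 telomeric families had more antisense than sense nascent RNA in both lines, with ratios from -2.82 to -0.68. 412's nascent RNA, from an LTR element of the mdg1 group, was 126 RPM sense and 614 RPM antisense in tj and 126 RPM sense and 467 RPM antisense in nos, against 97.2 RPM sense and 38.8 RPM antisense at steady state in tj and 78.3 RPM sense and 21.8 RPM antisense in nos. Tom1, with the same reversal, had ratios of -1.54 and 1.97 in tj and -1.43 and 1.72 in nos, nascent first.

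R2-element was the family with the opposite order. Its nascent ratios were 5.41 in tj and 5.27 in nos, whereas its steady-state RNA was 3.88 RPM sense and 90.6 RPM antisense in tj and 3.21 RPM sense and 63.4 RPM antisense in nos. R1A1-element, the other rDNA element, did not reverse, with 40.1 RPM sense and 13.9 RPM antisense at steady state in tj and 13.5 RPM sense and 7.20 RPM antisense in nos. Hopper was nearly even in nascent RNA, with 33.1 RPM sense and 20.1 RPM antisense in tj and 31.8 RPM sense and 22.6 RPM antisense in nos, in contrast to its almost pure sense RNA at steady state. P-element, with the highest nascent ratio of the nos control, had 0.875 RPM sense and 0 RPM antisense at steady state in tj and 1.42 RPM sense and 0 RPM antisense in nos, too low for a ratio to be read. Others among the largest differences in a line were accord, with nascent ratios of -1.45 in tj and -0.37 in nos and steady-state ratios of 2.42 and 0.89, and gypsy5, whose steady-state RNA was under 2 RPM on each strand.

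Nascent RNA of the families rich in steady-state antisense was less one-sided. Of the 19 families with antisense excess in both RNA-seq libraries, 10 in tj and 6 in nos had it in GRO-seq, with median nascent ratios of -1.02 and -0.65, beside 38.5% and 23.9% of all families. They held 95.5% and 98.2% of steady-state antisense RPM in tj and nos but 15.0% and 14.2% of nascent antisense RPM, and were 19 of 117 families. The set was picked by its RNA-seq ratios. A larger antisense share and a more extreme ratio in RNA-seq than in GRO-seq therefore follow in part from that choice. G2 had 15.8 RPM sense and 22.8 RPM antisense nascent in tj and 9.53 RPM sense and 23.6 RPM antisense in nos, and ZAM had 5.82 RPM sense and 12.4 RPM antisense in tj and 7.63 RPM sense and 10.2 RPM antisense in nos. Both were low on each nascent strand, next to steady-state antisense levels above 1000 RPM. HMS-Beagle, an LTR element, had slightly more sense in nascent RNA, with 58.3 RPM sense and 51.0 RPM antisense in tj and 68.0 RPM sense and 48.3 RPM antisense in nos, but 30.5 RPM sense and 1293 RPM antisense at steady state in tj and 32.0 RPM sense and 1009 RPM antisense in nos. The errantivirus 17.6 had the same pattern, with nascent ratios of 0.20 and 0.40 and steady-state ratios of -4.25 and -3.98 in tj and nos. Reads of a family were not placed in the genome, so which copies gave the antisense RNA was not tested.

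Nascent antisense RPM had the highest correlation with DNA content of the 4 strand and assay pairs. DNA content was taken as RPM in the ChIP-seq input of the same control line. Across 117 families Pearson r with log2 input RPM was 0.82 in tj and 0.82 in nos for nascent antisense (log2 of RPM + 1) and 0.68 and 0.70 for nascent sense. At steady state it was 0.47 and 0.45 for antisense and 0.59 and 0.58 for sense. Family length and copy number enter all of these values, and the differences between the coefficients were not tested. By Spearman rho the nascent antisense values were 0.79 and 0.78 and the nascent sense values 0.71 and 0.73. At steady state rho was 0.68 and 0.68 for antisense and 0.73 and 0.70 for sense, so the assays lay closer together than by Pearson r. Pearson r of the strand ratio with H3K9me3, a mark of silent chromatin, taken over input in the same control line, was -0.06 and -0.03 for nascent and -0.19 and -0.20 for steady-state ratios in tj and nos. The median enrichment was 2.95-fold in families with nascent antisense excess and 2.83-fold in those with nascent sense excess in tj, and 2.54-fold and 3.14-fold in nos. By steady-state excess it was 3.64-fold with antisense and 3.31-fold with sense excess in tj, and 3.43-fold and 2.06-fold in nos, where the gap was the largest of these.

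The strand ratios of the controls were then set beside those of piwi knockdown with the same driver, with 1 deposited column per strand each. In GRO-seq 15 families under tj had a ratio at least 2-fold above the control (12.8%) and 27 under nos (23.1%), and 4 under each driver (3.42%) a ratio as far below it. In RNA-seq it was higher for 34 (29.1%) and 31 (26.5%) and lower for 4 (3.42%) and 8 (6.84%). The median differences were 0.04 and 0.34 in GRO-seq and 0.38 and 0.37 in RNA-seq, under tj and nos. Centred on them, 14 families were higher and 4 lower under tj and 23 and 10 under nos in GRO-seq, and 19 and 12 under tj and 23 and 14 under nos in RNA-seq, so the split between directions was close to the uncentred one in GRO-seq under tj and less one-sided in the others. The list counts that follow are not centred, and the lists were chosen with earlier results of these data known. Of the 13 gypsy-group families with an envelope gene, 6 were higher in nascent and 11 in steady-state RNA under tj, and 3 and 4 under nos. Of the 7 families of the mdg1 group, 4 and 6 were higher under tj and 1 and 1 under nos. The difference between the drivers was not tested.

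**Figure D5:**
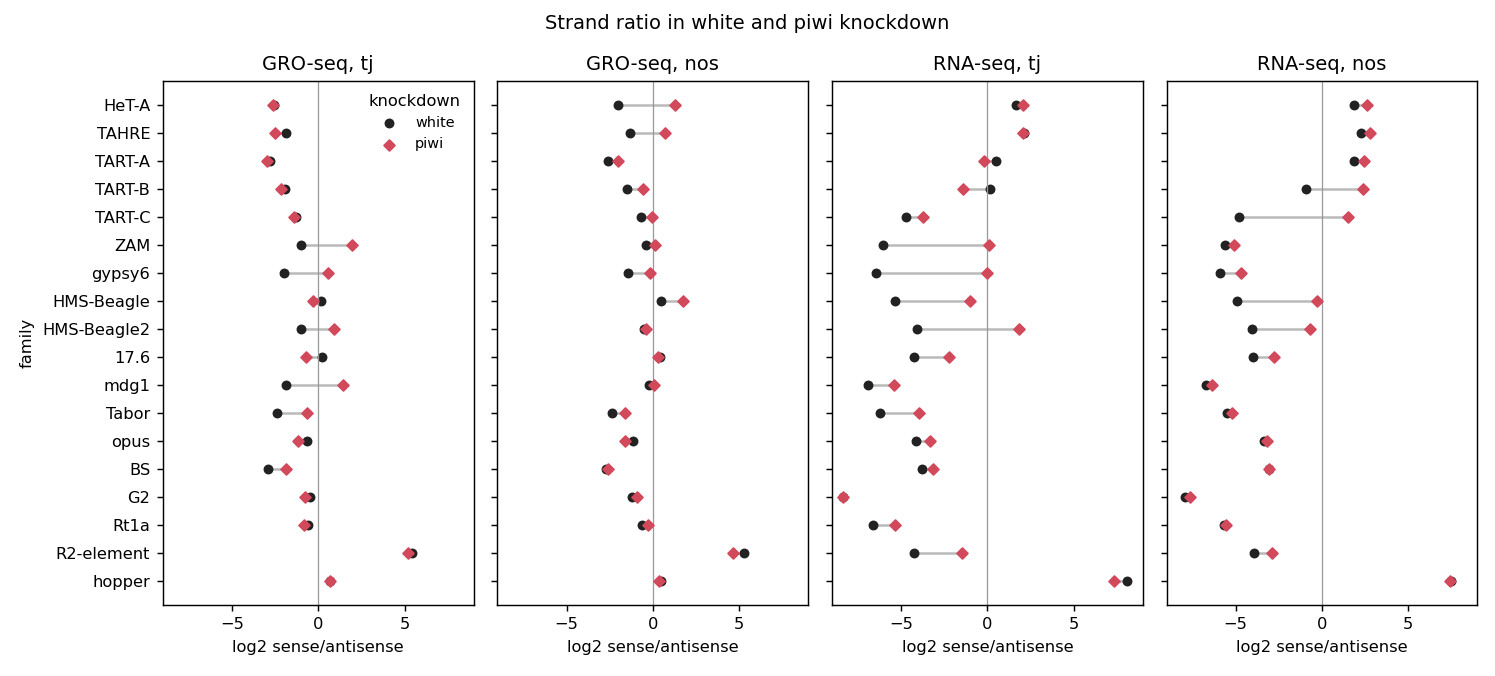
Strand ratio (log2 of sense over antisense, RPM + 1) of 18 families in white knockdown (black circles) and piwi knockdown (red diamonds), by assay and driver. ZAM, gypsy6 and HMS-Beagle2 move to the right in RNA-seq under tj, HeT-A and TAHRE cross 0 in GRO-seq under nos, and TART-C and TART-B cross 0 in RNA-seq under nos.

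For ZAM and gypsy6, whose steady-state ratios were far above the control under tj, the difference lay mainly in sense RNA. ZAM under tj had 5192 RPM sense in piwi knockdown against 94.5 RPM in the control, while antisense was 4878 against 6337 RPM. Gypsy6 under tj had 419.7 against 4.56 RPM sense and 429 against 488 RPM antisense. In both the antisense level in piwi knockdown was within 1.5-fold of the control. Mdg1 had 451 against 217 RPM sense and 18928 against 26618 RPM antisense under tj, so its antisense excess was still above 16-fold. BS, G2 and Rt1a had steady-state ratios below -2 in the control and in piwi knockdown under both drivers.

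Under nos, HeT-A and TAHRE in nascent RNA and TART-B and TART-C at steady state lay on opposite sides of 0 in control and piwi knockdown. Nascent HeT-A had 251 RPM sense and 102 RPM antisense in piwi knockdown against 48.0 RPM sense and 200.1 RPM antisense in the control, ratios of 1.29 and -2.04. Its antisense RNA was lower and its sense RNA higher than in the control. TAHRE had nascent ratios of 0.72 and -1.30, while TART-A, at -2.02 and -2.57, was on the antisense side in both. At steady state TART-C had 919 RPM sense and 318 RPM antisense in piwi knockdown against 4.07 RPM sense and 139 RPM antisense in the control. Under tj the nascent ratios of all 5 were negative in control and knockdown, with differences from the control between -0.66 and -0.09. 412's nascent RNA under tj was 1631 RPM sense and 593 RPM antisense in piwi knockdown against 126 RPM sense and 614 RPM antisense in the control, so the strand order was reversed with like antisense levels. The most negative nascent difference under nos was that of frogger, at 0.36 in piwi knockdown and 3.62 in the control. Frogger and 412's family were chosen for these sentences after their values were seen.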

How the data were processed

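Transposon families have sense, antisense and total RPM, scaled to library size, in 1 deposited column each per condition and assay, per the file headers. Totals equal the sum of the strands. DESeq 1.10.1 is listed for both RNA assays in the submitters' processing notes, with Bowtie2 2.0.0 for every assay, TopHat2 2.0.5 for RNA-seq and SICER 1.1 for ChIP-seq, with build dm3. Not given in the sources used here are the step each performed, how strand was assigned and how related families shared reads. The authors' ChIP-seq table gives input RPM and the ratio of H3K9me3 to input.

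Strand ratios were log2 of sense RPM + 1 over antisense RPM + 1, counted at 2-fold, with no model and no test. RNA-seq depth was recovered in tj only, where all 17 distinct values under 1 RPM were sums of 2 steps within 1e-09 RPM, as for a mean of libraries of 7913694 and 2708244 reads. In nos 11 of 17 were, and GRO-seq values, written to 2 decimals, were whole reads at no single step (at best 66.8% in tj and 65.5% in nos), so depth there is unknown and no interval is given.

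Members and lists were chosen with earlier results of these data known. Named families were the 6 highest and 6 lowest ratios of each library, the 5 largest differences each way between lines and between assays, and list members as examples. Spelling of 2 list names was matched to the tables. Alternatives were pseudocounts of 0.1 and 5 RPM, no level minimum, a mean of 10 RPM, 1 RPM in each library, and centring. The calculation was tested on simulated reads with set strand ratios, at an assumed depth. Recovery of these ratios was scored only for families of at least 10 RPM, so it does not cover lower families or the real depth. Python 3.11.15, numpy 2.4.6, pandas 2.3.3, scipy 1.17.1 and matplotlib 3.10.9 were used. Host genes and small RNAs were not analysed here, and no element sequence was used.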

Additional observations from a re-analysis of the deposited data

Results flagged for a closer look

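Among the controls, 3 families had nascent ratios of opposite sign in the 2 lines and at least 4-fold apart, a size chosen after seeing the data. Rover was at -2.07 in tj and 0.68 in nos, a difference of -2.75 (log2), Stalker2 at -2.40 and 0.09, a difference of -2.49, and flea at -1.63 and 0.76, a difference of -2.39. Each rests on 1 library per line, and the difference was not tested. No family met the same condition in RNA-seq, where rover was at 1.75 and 2.20, Stalker2 at -2.66 and -1.75 and flea at 1.59 and 1.77.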

How the results depend on the processing

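The medians over all families moved by less than the median absolute difference between the control lines of their assay under both pseudocounts and all 3 other level minimums (centring was run on counts of differences alone), and with no level minimum all counts and list medians kept within the same limit or within 1.5 times. No ratio changed sign with the pseudocount, by construction. With 10 RPM, which left 68 families, nascent counts were 9 sense and 28 antisense in tj and 13 and 16 in nos. Between the assays 29 in tj and 26 in nos were higher at steady state. Higher ratios in tj than nos were 1 in GRO-seq and 2 in RNA-seq, where 6 were lower. Nascent DNA medians turned to 0.46 in tj and 0.48 in nos, and the steady-state DNA median in tj was 0.71. Steady-state medians also turned for LINE-like families (-0.23 in tj and -0.32 in nos), the jockey clade (-0.66 in tj and -0.11 in nos) and the envelope-carrying group in tj (-0.28). That group's nascent median in nos was -0.38, the copia group's were 1.61 nascent in nos and 2.35 at steady state in tj, and the BEL-Pao median at steady state in nos was 0.54.

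With a pseudocount of 5 RPM 20 families had steady-state sense excess in tj. Between the lines 1 was higher in tj in GRO-seq, and 1 higher and 4 lower in RNA-seq. Copia group medians were 3.34 and 1.87 nascent and 2.22 at steady state in nos, the envelope-carrying group was at -0.33 nascent in nos and the telomeric median at steady state in nos 1.12. With 0.1 RPM 24 steady-state ratios were lower in tj, the copia group was at 4.53 and 3.00 nascent and the jockey clade at 1.08 at steady state in nos. With 1 RPM in each library 1 nascent ratio was higher in tj. Centred, 5 were higher and 8 lower in GRO-seq and 7 lower in RNA-seq. RNA-seq depth in nos and GRO-seq depth are unknown, so no depth limit is given for their counts. No paired analysis was possible because each group has 1 deposited column per strand and no test was made.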

Other observations

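Families outside the set of 117 had the following control values. Bari2, a DNA transposon, Stalker3T and invader5, LTR elements, are listed in GRO-seq alone. Bari2 had nascent ratios of 1.05 in tj and 0.93 in nos, invader5 1.32 and 1.24, and Stalker3T 0.22 and 0.77. All of their strands were under 10 RPM. Hopper2, under the RNA-seq minimum, had 7.90 RPM sense and 7.25 RPM antisense nascent in tj and 8.08 RPM sense and 6.05 RPM antisense in nos, and R1-2 had 5.50 RPM sense and 3.93 RPM antisense in tj and 4.58 RPM sense and 3.21 RPM antisense in nos.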
